A study of Homo sapiens with 12 samples.

Results

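Silymarin and ursodeoxycholic acid were set against each other in HepG2, per its label an established line of human liver cancer. The comparison comprised the 6 arrays titled Sil_1 to Sil_3 and Urso_1 to Urso_3, of 12 in the series. Each agent had been given at 25 µM. The other arrays came from 3 mock-treated samples (titled Mock) and from 3 samples given 25 µM glycyrrhizin (Gly). All 12 entered 1 fit, from which the contrast of silymarin minus ursodeoxycholic acid was taken, and the mock arrays served to tell which agent had moved. All cells were grown with fetal bovine serum, and how long treatment lasted is not stated in the labels. The labels do not tie the arrays of a group to separate cultures. The p-values then reflect only how far these arrays differ, possibly for technical reasons.

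Silymarin is an extract of milk thistle seed made up of flavonolignans, which are polyphenols. Many plant polyphenols bind the aryl hydrocarbon receptor (AhR), a transcription factor that switches on cytochromes of the CYP1 family. Ursodeoxycholic acid is a hydrophilic bile acid used against cholestasis. Bile acids are sensed in liver by the nuclear receptor FXR (NR1H4) and, at the membrane, by the receptor GPBAR1. The question of the comparison was which genes respond differently to these unlike molecules.

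Levels are given as log2 of the deposited intensity, and the median gene lay at 6.7. A gene below that value is called dim here. The 13881 genes with a symbol were tested, each through its brightest probe. Array medians of the intensity lay between 85.8 and 86.6. Across probes, the arrays least like the rest, by their median correlation, were ursodeoxycholic acid replicate 1 (r = 0.908) and silymarin replicate 2 (r = 0.911), and the other 10 lay between 0.922 and 0.938. The labelled cell type was checked against markers. Of 20 hepatocyte markers 16 were measured, with a median level of 6.75, and 9 of them stood at or above the median gene. They included the fetal serum protein AFP at 6.89 and the apolipoproteins APOA1 at 7.66 and APOA2 at 5.17. Of 15 neuroblast markers 11 were measured, with a median of 8.06, and 8 of them stood at or above the median gene. Bright ones among them were tyrosine hydroxylase (TH) at 12.49 and the neuronal stathmin STMN2 at 11.08. The mesenchymal filament gene VIM stood at 15.53. It is 1 of 9 measured fibroblast or stellate markers, whose median was 6.29, with 4 of them at or above the median gene. No marker was listed at 0. The secreted liver proteins were thus not a bright group on these arrays, while several neuroblast genes were. These levels leave in doubt whether the cells are the labelled line or whether the probes read the genes that the platform annotation gives them, and neither was tested. Every gene named here is named through that annotation.

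Of those genes, 7 differed between silymarin and ursodeoxycholic acid at a Benjamini-Hochberg adjusted p under 0.05 in limma, which is 0.0504% of the genes tested. Of these, 5 were higher with silymarin (0.036%) and 2 were lower (0.0144%). Each difference came from 1 agent. The 5 genes higher with silymarin were low in ursodeoxycholic acid and near mock in silymarin: the chloride channel CLCN2, the membrane-anchored migration factor MIEN1, the organic anion transporter SLC22A11, the muscle protein KLHL40 and the small GTPase RASL11A. The 2 lower genes were low in silymarin and near mock in ursodeoxycholic acid, and both encode proteins that handle the mRNA cap: DCPS, the scavenger enzyme that hydrolyses caps left by mRNA decay, and NCBP1, the large subunit of the nuclear cap-binding complex. No gene passed the same threshold for an agent against mock (0 genes or 0% in limma for each agent, with 728 genes or 5.24% at an unadjusted p under 0.05 for silymarin and 770 or 5.55% for ursodeoxycholic acid), so the assignment to an agent is a description. An agent was said to depart from mock where the 95% interval of its difference left out 0 and all its arrays lay beyond the 3 mock arrays on the same side. Over all genes, 3.98% departed with silymarin and 3.88% with ursodeoxycholic acid.

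The calls depended on which arrays and probes entered the limma fit. Over all 27561 probes, with or without a symbol, none passed (2138 at an unadjusted p under 0.05). No gene passed when it held the silymarin, ursodeoxycholic acid and mock arrays alone (1017 genes at an unadjusted p under 0.05), or the 6 compared arrays alone (949). None passed without silymarin replicate 2 (882), ursodeoxycholic acid replicate 1 (1271) or 2 (1101) or mock replicate 2 (1105), whereas 32 passed without ursodeoxycholic acid replicate 3, 6 of the 7 among them. Without silymarin replicate 1 or 3 or mock replicate 1 or 3 the count was 2, 1, 2 and 3.

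**Figure D1:**
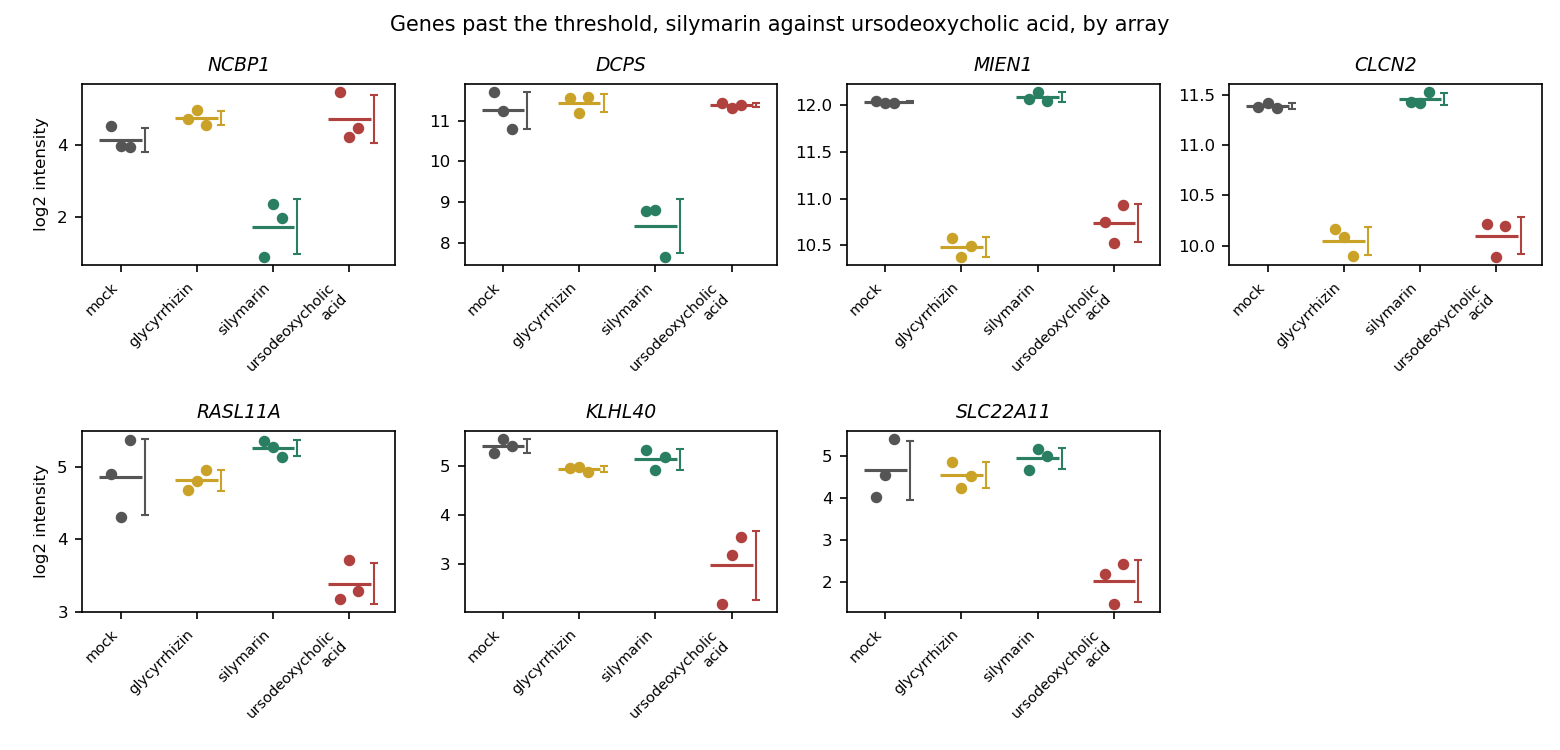
Log2 intensity (vertical axis) of the 7 genes past the threshold on each of the 12 arrays, by treatment. Points are arrays, horizontal lines group means and bars 1 SD over 3 arrays. In NCBP1 and DCPS the silymarin arrays stand apart, in the other 5 genes the ursodeoxycholic acid arrays, and in MIEN1 and CLCN2 the glycyrrhizin arrays lie low as well.

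For the 3 brightest genes past the threshold, the 250 bases before the gene start are shown, because CLCN2 and MIEN1 had nearly the same profile over the 4 groups and DCPS the opposite agent. The sequences are from RefSeq on GRCh38.p14, at chr3:184361606-184361855 (minus strand) for CLCN2, chr17:39730533-39730782 (minus strand) for MIEN1 and chr11:126303810-126304059 (plus strand) for DCPS. Capitals mark matches, on either strand, to GGGCGG (GC box), CACGTG (E-box), GCGTG (core of the AhR element) or TGACNNNGC (core of the antioxidant element), and to the inverted repeat bound by FXR.
CLCN2: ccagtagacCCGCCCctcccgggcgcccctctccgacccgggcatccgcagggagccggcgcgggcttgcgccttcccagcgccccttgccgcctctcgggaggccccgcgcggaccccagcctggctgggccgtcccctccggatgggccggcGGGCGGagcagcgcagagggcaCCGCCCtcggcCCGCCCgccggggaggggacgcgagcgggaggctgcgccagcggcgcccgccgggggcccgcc
MIEN1: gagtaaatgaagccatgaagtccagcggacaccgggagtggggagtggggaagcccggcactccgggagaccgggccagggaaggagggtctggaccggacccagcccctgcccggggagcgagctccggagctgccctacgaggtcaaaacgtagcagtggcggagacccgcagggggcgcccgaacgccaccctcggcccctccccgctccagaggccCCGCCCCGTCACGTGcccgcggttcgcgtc
DCPS: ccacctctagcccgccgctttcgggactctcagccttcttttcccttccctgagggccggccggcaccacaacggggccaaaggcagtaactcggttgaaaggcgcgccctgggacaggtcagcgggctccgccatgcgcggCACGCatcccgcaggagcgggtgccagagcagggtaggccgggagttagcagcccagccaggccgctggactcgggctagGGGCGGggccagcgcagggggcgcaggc
The CLCN2 window held 4 GC boxes and no other of these motifs. In MIEN1 a GC box, an antioxidant core and an E-box overlapped or touched in 1 run of capitals. DCPS held 1 GC box and 1 AhR core. Over 27305 promoter windows of the same length, 42.3% held a GC box, 6.49% an E-box, 31.9% an AhR core and 11% an antioxidant core, and 0 held the FXR repeat. Of the 7 genes 5 were matched in the promoter table, and SLC22A11 and NCBP1 were not. These matches describe the letters in the windows and are not binding sites.

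The largest difference among bright genes was that of DCPS. On the silymarin arrays it read 8.79, 8.81 and 7.65, and on the ursodeoxycholic acid arrays 11.43, 11.32 and 11.4. The mock arrays read 11.71, 11.24 and 10.8 and the glycyrrhizin arrays 11.56, 11.19 and 11.58. All 3 silymarin arrays therefore lay below the other 9. The group means were 8.41 ± 0.67 (SD, n = 3) with silymarin and 11.38 ± 0.05 with ursodeoxycholic acid, which was 7.83-fold higher (log2 difference −2.97, SE 0.33, adjusted p = 0.0277 in limma). Silymarin differed from mock by −2.84 (95% interval −3.57 to −2.11) and ursodeoxycholic acid by 0.13 (−0.6 to 0.86). Leaving out 1 array at a time kept the difference between −3.17 and −2.59, with adjusted p-values from 0.0241 to 0.129.

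NCBP1 pointed the same way at the dim end of the arrays. It read 0.87, 2.35 and 1.97 with silymarin, 5.49, 4.24 and 4.47 with ursodeoxycholic acid and 4.54, 3.97 and 3.95 in mock. The silymarin arrays lay below all ursodeoxycholic acid and mock arrays, which overlapped each other. The gene ranked in the lowest 1.52% by brightness and its silymarin values were close to the lowest deposited intensity, so no fold is given. The fitted log2 difference, which is no measure of size at this brightness, was −3 (SE 0.41, adjusted p = 0.0481 in limma). With 50 added to every intensity before the log it was −0.54, since an offset shrinks the differences of dim probes. Of 25 measured genes of cap handling and mRNA decay, chosen as a list with these 2 genes known, 17 lay higher and 8 lower with silymarin. The median difference was 0.08, against 0 over all genes. DCPS and NCBP1 were the list's only members past the threshold. The decapping activator DCP1A read 6.12, 6.59 and 6.17 with silymarin against 7.5, 6.54 and 7.26 with ursodeoxycholic acid, with overlap, and did not pass (adjusted p = 0.522 in limma).

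CLCN2 and MIEN1 were the bright genes on the other side. CLCN2 read 11.43, 11.42 and 11.53 with silymarin and 11.38, 11.42 and 11.37 in mock, so these 2 groups differed by 0.07 (95% interval −0.31 to 0.44). On the ursodeoxycholic acid arrays it read 10.22, 9.89 and 10.2, below all 6 of them. The difference between the agents was 2.56-fold (log2 difference 1.36, SE 0.17, adjusted p = 0.0277 in limma). MIEN1 read 12.06, 12.14 and 12.03 with silymarin, 12.04, 12.02 and 12.02 in mock and 10.75, 10.53 and 10.93 with ursodeoxycholic acid. It was 2.54-fold higher with silymarin (1.34, SE 0.17, adjusted p = 0.0277 in limma). Both genes were low with glycyrrhizin too, at means of 10.05 ± 0.14 (CLCN2) and 10.48 ± 0.1 (MIEN1), so their profile set silymarin and mock apart from the other agents. The log2 differences of both stayed between 1.24 and 1.44 when any 1 array was left out.

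The remaining 3 genes past the threshold were dim. SLC22A11, known as a transporter of sulfated steroids and urate in kidney and placenta, read 2.17, 1.46 and 2.42 with ursodeoxycholic acid and 4.66, 5.15 and 5 with silymarin. Mock lay at 4.01, 4.54 and 5.41, so the ursodeoxycholic acid arrays were the low ones (log2 difference between the agents 2.92, SE 0.37, adjusted p = 0.0277 in limma). KLHL40, which stabilizes thin filament proteins in skeletal muscle, read 2.17, 3.18 and 3.53 with ursodeoxycholic acid against 5.32, 4.9 and 5.18 with silymarin and 5.25, 5.55 and 5.41 in mock (2.17, SE 0.3, adjusted p = 0.0481). RASL11A read 3.17, 3.71 and 3.29 with ursodeoxycholic acid, 5.37, 5.28 and 5.14 with silymarin and 4.91, 4.32 and 5.37 in mock (1.87, SE 0.27, adjusted p = 0.0481). In all 3 the glycyrrhizin means, at 4.54, 4.93 and 4.82 in that order, lay nearer to mock than the ursodeoxycholic acid means did. These genes lay in the lowest 10.3% by brightness, no detection call came with the values, and with 16 added before the log none of the 3 passed. Their fitted differences are no measure of size at this brightness. Under alternative processing they shrank to as little as 0.58 (SLC22A11), 0.55 (KLHL40) and 0.55 (RASL11A).

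**Figure D2:**
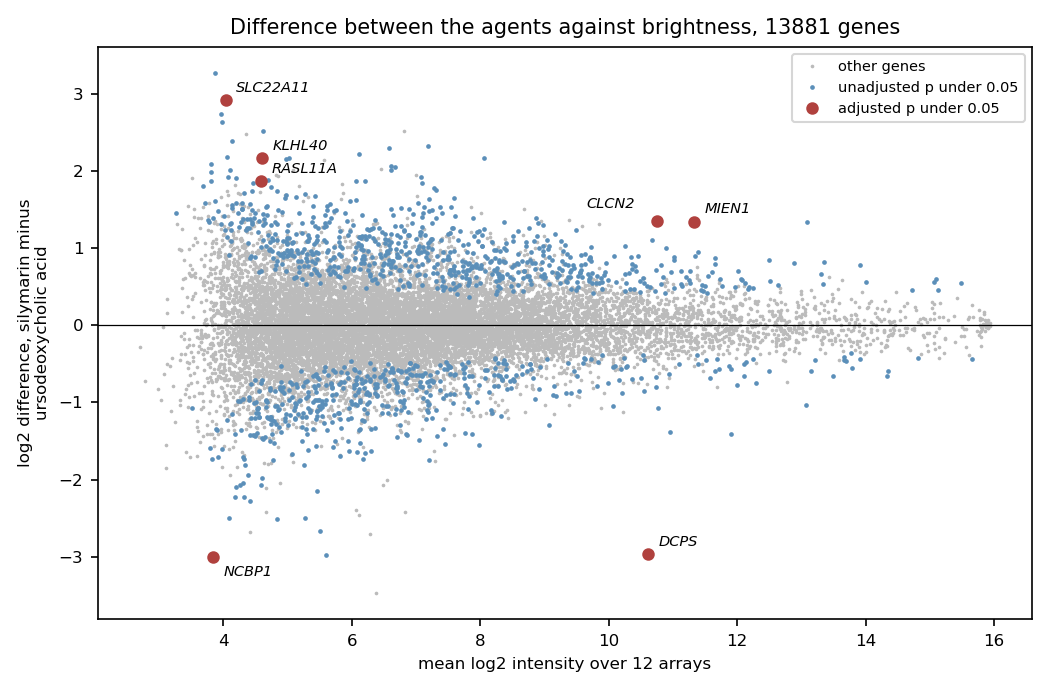
Log2 difference, silymarin minus ursodeoxycholic acid (vertical axis), against the mean log2 intensity over the 12 arrays (horizontal axis), 1 point per gene. The spread is widest among dim genes. The 7 genes past the threshold are named, 4 at levels under 5 and 3 above 10.

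Beyond these 7 genes the difference was spread thinly. At an unadjusted p under 0.05 stood 1182 genes, 8.52% of those tested, 698 higher with silymarin (5.03%) and 484 lower (3.49%). A threshold of that kind would pass 694 genes if none differed. The excess of higher over lower genes was widest at the bright end. Among the brightest 3470 genes 211 were higher and 99 lower, and among the dimmest 3471 genes 153 were higher and 131 lower. Of the 1182, 176 were genes in which silymarin alone departed from mock (14.9%), 204 in which ursodeoxycholic acid alone did (17.3%) and 793 in which neither did by the rule above (67.1%). Both agents departed on the same side in 5 (0.423%) and on opposite sides in 4 (0.338%). Over all genes the shares were 3.24%, 3.15%, 92.9%, 0.706% and 0.0288% in that order, from which nothing is read, since a difference between the agents makes a departure of either more likely. Arrays of the agents did not overlap in 14.7% of all genes, with silymarin above in 6.84% and below in 7.82%, and the difference was above 0 in 50%. Half-widths of the 95% intervals had a median of 0.74, so for the typical gene a difference smaller than that could not be told from 0.

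Among the 20 genes named by size of difference past the threshold or by smallest p, 9 departed from mock with silymarin, 10 with ursodeoxycholic acid and 1 with both. The 13 others than the 7 above did not pass, and their levels describe what came next in the ranking. The bright ones higher with silymarin were CYP1B1 (adjusted p = 0.13 in limma), PHETA2, an adaptor of endosomal traffic (0.163), AJAP1, a protein of adherens junctions (0.172), and CYP1A2 (0.196). PHETA2 read 8.92, 8.72 and 8.83 with silymarin against 7.31, 7.81 and 7.85 with ursodeoxycholic acid and 7.76, 7.94 and 7.58 in mock. AJAP1 read 9.86, 9.92 and 10.07 against 8.61, 8.27 and 8.77, with mock at 8.38, 8.56 and 9.03. For PHETA2 and AJAP1 it was silymarin that lay above mock, by 1.06 and 1.29 on the log2 scale. NGDN, a dim gene linked to translational control, lay at 3.33 ± 0.17 (SD, n = 3) with ursodeoxycholic acid, below mock at 4.95 ± 0.36 and silymarin at 4.9 ± 0.2.

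Lower with silymarin, the bright genes had smaller differences. M6PR, the receptor that carries lysosomal enzymes marked with mannose 6-phosphate, read 6.57, 6.43 and 6.33 with silymarin against 7.4, 7.08 and 7.04 with ursodeoxycholic acid and 7.04, 7.26 and 7.31 in mock, so silymarin was the low group (log2 difference −0.73, SE 0.18). The liver-type phosphofructokinase PFKL read 12.94, 13.11 and 13.01 against 13.74, 13.56 and 13.72, with mock at 13.19, 13.35 and 13.23, and departed from mock with ursodeoxycholic acid. The same agent was the one of the 2 that departed for CCDC32 and C17orf50, by 0.75 and 0.76. With glycyrrhizin PFKL and CCDC32 lay above mock too, by 0.73 and 0.49, and C17orf50 differed from mock by 0.04. The defensin gene DEFB126 departed with silymarin by −0.37, its interval ending near 0. Among dim genes, the polarity protein CRB3 (−2.09) and the phosphodiesterase PDE3A (−1.94) were low with silymarin. KTI12 was the 1 named gene in which both agents departed, on opposite sides: it read 3.92, 4.58 and 4.15 with silymarin, 5.14, 5.18 and 5.41 in mock and 6.51, 6.04 and 5.53 with ursodeoxycholic acid.

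**Figure D3:**
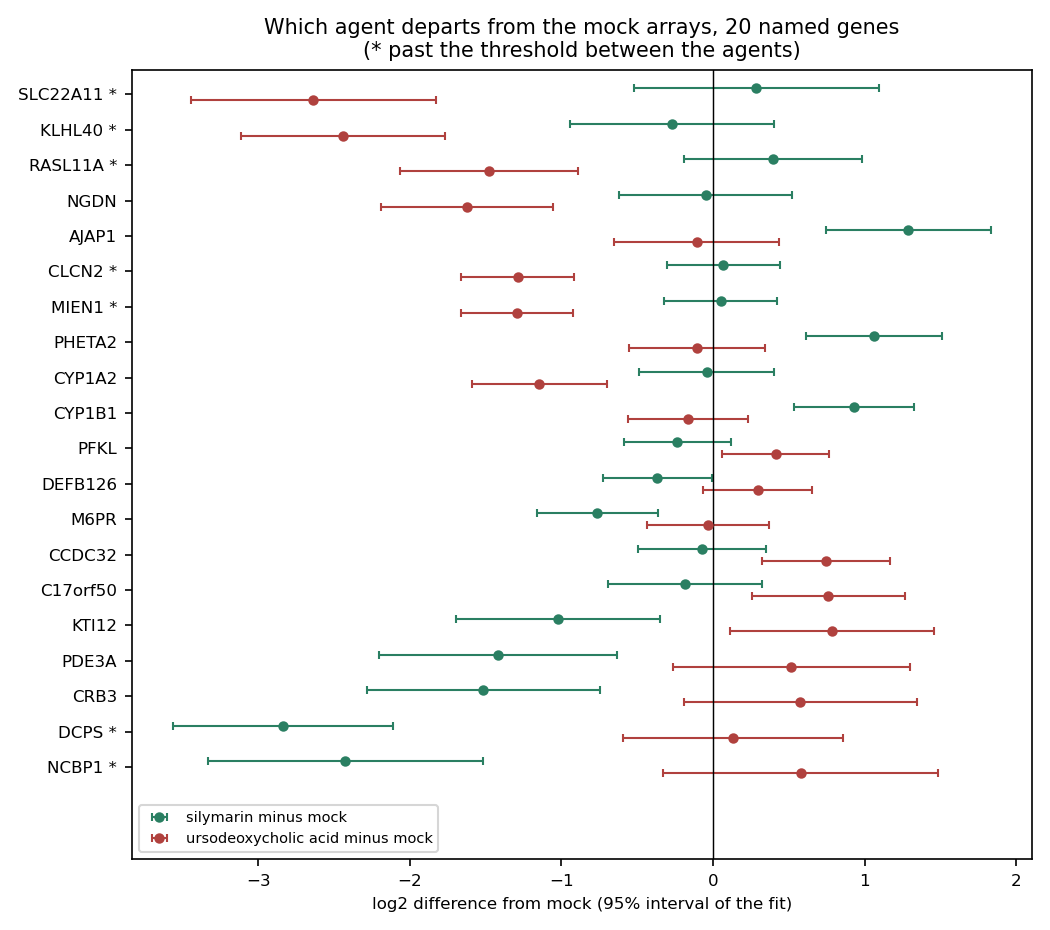
Log2 difference from mock (horizontal axis) for the 20 named genes, with silymarin in green and ursodeoxycholic acid in red. Points are differences of group means and bars their 95% intervals from the fit, and both comparisons share the mock arrays. For SLC22A11, KLHL40, RASL11A, NGDN, CLCN2, MIEN1 and CYP1A2 the red points lie far below 0, and for PDE3A, CRB3, DCPS and NCBP1 the green ones do.

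The lists of genes that follow were chosen with earlier results of these data known. They cover pathways that fit a liver line given a polyphenol or a bile acid, general cell processes, and markers of other cell types. Of 575 genes in the 39 lists, DCPS and NCBP1 alone passed, and 43 stood higher and 27 lower at an unadjusted p under 0.05. Over all genes 8.52% stood there, 5.03% higher and 3.49% lower, which is the share to set beside the counts of each list. No test was made of a list. List medians ran from −0.27 to 0.4, and in 29 of 39 lists the median lay within 0.2 of 0.

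The AhR list held 7 measured genes, of which 6 were higher with silymarin. At an unadjusted p under 0.05 stood 2 higher and 1 lower, 42.9% of the list against 8.52% of all genes, with a median difference of 0.31. Its members did not share a profile. CYP1B1, a cytochrome that oxidizes estrogens and polycyclic aromatics, read 9.73, 9.91 and 9.66 with silymarin against 8.77, 8.52 and 8.71 with ursodeoxycholic acid and 9.06, 8.71 and 8.73 in mock. Silymarin was thus the agent that lay above mock for CYP1B1 (log2 difference between the agents 1.1, SE 0.18). All glycyrrhizin arrays lay below mock for this gene, with a difference of −0.72. CYP1A2, which oxidizes caffeine and aromatic amines, read 11.1, 11.3 and 11.42 with silymarin and 11.35, 11.39 and 11.2 in mock, and 10.26, 9.9 and 10.34 with ursodeoxycholic acid, which was the agent that lay below mock. The aldehyde dehydrogenase ALDH3A1 read 6.83, 6.63 and 6.58 with ursodeoxycholic acid, above all mock and silymarin arrays, the highest of which was 6.34. The receptor AHR differed by 0.31 between the agents and its partner ARNT by 0.23. For CYP1A2 the level rests on a single probe at percentile 92.7 of brightness, and whether it reads that transcript was not tested.

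**Figure D4:**
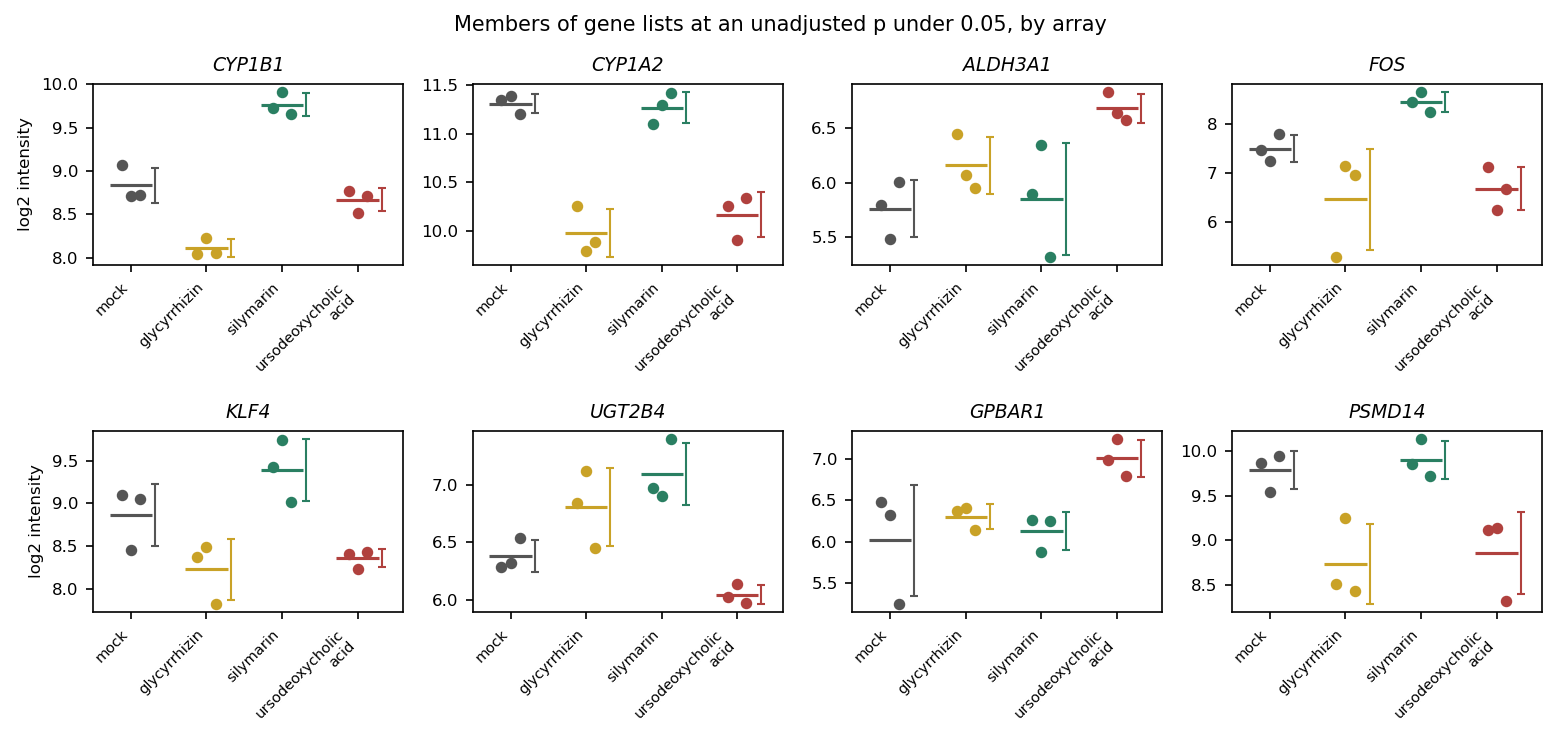
Log2 intensity (vertical axis) of 8 list members on each array, by treatment, with group means as lines and 1 SD as bars. CYP1B1 is high with silymarin alone and low with glycyrrhizin. CYP1A2 and PSMD14 are low with both ursodeoxycholic acid and glycyrrhizin, and ALDH3A1 and GPBAR1 are highest with ursodeoxycholic acid. None of the 8 passed the threshold over all genes.

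Among receptors and transporters of bile acids, 19 were measured, 7 higher and 12 lower with silymarin, with a median of −0.08 and none past the threshold. GPBAR1, the membrane receptor for bile acids, read 6.99, 7.25 and 6.8 with ursodeoxycholic acid, 6.26, 5.87 and 6.25 with silymarin and 6.48, 6.32 and 5.24 in mock, so it was the bile acid arrays that lay above mock (difference between the agents −0.88, SE 0.31, adjusted p = 0.513 in limma). KLB, the co-receptor through which the hormone FGF19 acts, read 4.72, 4.74 and 3.62 with silymarin, against 5.05 to 5.18 with ursodeoxycholic acid. Without silymarin replicate 3 its difference of −0.76 became −0.39. The receptor FXR itself (NR1H4) differed by 0.3, its target NR0B2, a repressor of bile acid synthesis, by −0.08, and the export pump ABCB11 by −0.26. Of 14 genes of bile acid synthesis and conjugation 7 were higher and 7 lower. The conjugating enzyme BAAT read 6.37, 6.51 and 6.54 with silymarin and 5.49, 5.48 and 6.02 with ursodeoxycholic acid, with mock at 6.07, 5.83 and 5.57. CYP8B1, which directs synthesis to cholic acid, lay the other way (−0.72, or −0.45 without silymarin replicate 3), and CYP7A1, the first enzyme of the classical route, differed by 0.73 without passing.

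Drug-metabolizing enzymes of phase II had the second highest list median, 0.35 over 8 genes, of which 6 were higher with silymarin. UGT2B4, which glucuronidates bile acids, read 6.97, 6.9 and 7.4 with silymarin and 6.03, 6.13 and 5.97 with ursodeoxycholic acid, mock lying between at 6.28, 6.32 and 6.54 (log2 difference 1.05, SE 0.22, adjusted p = 0.253 in limma). The sulfotransferase SULT1A1 was dim and differed by 1.37. Of 14 phase I enzymes 6 were higher, and CYP3A5 (1.17) and CYP2C8 (0.96) had the smallest p-values. Both rested on ursodeoxycholic acid replicate 1, without which they differed by 0.58 and 0.38. Of 11 measured targets of the antioxidant factor NRF2 6 were higher and 5 lower, with differences from −1.06 to 0.87. The highest was that of heme oxygenase HMOX1, a dim gene. It differed from mock by −0.13 with silymarin and by −1 with ursodeoxycholic acid, whose arrays overlapped mock. Of 13 other antioxidant enzymes 9 were higher, none at an unadjusted p under 0.05.

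Immediate early genes, which are transcribed within minutes of a growth or stress signal, and regulators of the G1 phase formed a list of 16, of which 12 were higher with silymarin. At an unadjusted p under 0.05 stood 5, all higher, which is 31.2% of the list against 8.52% of all genes (5.03% higher), and none passed over all genes. FOS read 8.46, 8.67 and 8.26 with silymarin, 7.46, 7.24 and 7.79 in mock and 7.12, 6.25 and 6.68 with ursodeoxycholic acid. The silymarin arrays were thus above mock and the ursodeoxycholic acid arrays below it without overlap (difference between the agents 1.78, SE 0.44, adjusted p = 0.35 in limma). By the rule given above, however, neither agent departed from mock for FOS. The intervals of the differences from mock were −0.003 to 1.93 with silymarin and −1.78 to 0.15 with ursodeoxycholic acid. KLF4 read 9.42, 9.74 and 9.01 with silymarin and 8.41, 8.23 and 8.43 with ursodeoxycholic acid, with mock at 9.09, 8.45 and 9.05 overlapping silymarin. The phosphatase DUSP1 lay above mock with silymarin, at 9.19 against 8.27, and FOSL1 below it with ursodeoxycholic acid, at 4.85, 6.42 and 6.37 against 6.7 to 7.39. Between the agents JUN differed by 0.01 and EGR1 by −0.13.

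Cytosolic ribosomal proteins had the highest list median, 0.4 over 10 genes, with 9 higher and RPL8 alone at an unadjusted p under 0.05. RPL8 read 15.03, 15.04 and 15.14 with silymarin, 14.7, 14.53 and 14.61 with ursodeoxycholic acid and 14.73, 14.66 and 14.85 in mock. The median of the members' differences from mock was 0.18 with silymarin and −0.23 with ursodeoxycholic acid. The list's median level on single arrays overlapped between the groups, from 8.58 to 8.72 with silymarin, 8.54 to 8.79 with ursodeoxycholic acid and 8.41 to 8.7 in mock. Of 31 proteasome genes 15 were higher and 16 lower. At an unadjusted p under 0.05 stood 5 (16.1%, against 8.52% of all genes), all higher with silymarin. The list is bright, with a median level of 9.63, and higher genes also outnumbered lower ones there among the brightest 3470 genes, as given above. The deubiquitinating lid subunit PSMD14 read 9.85, 10.14 and 9.72 with silymarin, 9.87, 9.54 and 9.94 in mock and 9.11, 9.14 and 8.32 with ursodeoxycholic acid, the agent that lay below mock. Oxidative phosphorylation was split, with 14 of 31 genes higher, NDUFV1 at 0.8 and NDUFA9 at −1.56. NDUFA9 was dim, and ursodeoxycholic acid replicate 1 was its highest array. It read 7.47, 6.09 and 5.77 with that agent and 5.32, 5.03 and 4.3 with silymarin.

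No gene of the cell cycle lists passed the threshold. Of 20 DNA replication genes 14 were higher with silymarin, with a median of 0.15. GINS4, a subunit of the replicative helicase complex, read 5.4, 5.5 and 5.29 with ursodeoxycholic acid against 7.11, 8.14 and 7.1 with silymarin and 7.6, 7.8 and 8.12 in mock (log2 difference 2.06, SE 0.39, adjusted p = 0.201 in limma), and it was low with glycyrrhizin too, at a mean of 5.99. The sliding clamp PCNA differed by 0.74. Of 17 genes of G2 and mitosis 9 were higher and 8 lower, and cyclin CCNA2 read 13.29, 13.4 and 13.21 with silymarin, below mock (13.86 to 14.04) and below ursodeoxycholic acid (13.78 to 13.92).

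The stress kinase PERK (EIF2AK3) read 10.1, 10.52 and 10.41 with silymarin against 9.77, 9.2 and 9.49 with ursodeoxycholic acid, with mock at 9.58 to 10.27 overlapping both. SEL1L, which draws misfolded proteins out of the endoplasmic reticulum, lay the other way (−1.13), and the 18 genes of that stress response split 9 to 9. Of 14 genes of the integrated stress response 11 were higher, CEBPB by 0.5 and DDIT4 by 0.54. Of 18 sterol synthesis genes 13 were higher, with SC5D, a dim gene, at 1.84. Its arrays overlapped between the agents, and without ursodeoxycholic acid replicate 2 it differed by 2.78. The fatty acid desaturase FADS2 (−1.74) rested on ursodeoxycholic acid replicate 1, at 10.34 against 7.15 and 7.32 on the other 2, and differed by −0.71 without it, and its arrays overlapped too. Interferon-stimulated genes were 10 higher and 7 lower. Of 17 inflammation genes 8 were higher and 9 lower, with a median of −0.03. Among them the cytokine IL6, a dim gene, was low with silymarin, at 3.58, 4.11 and 3.91 against 5.14, 5.09 and 4.38 in mock. With ursodeoxycholic acid IL6 read 5.18, 5.45 and 4.19, and it did not pass (adjusted p = 0.49 in limma).

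Markers of other cell types showed no member past the threshold. Of 9 fibroblast or stellate markers 7 were lower with silymarin (median −0.26), with decorin (DCN) at −0.57. For DCN ursodeoxycholic acid was the agent that departed from mock, by 0.53, and silymarin differed from mock by −0.04. Of 11 neuroblast markers 8 were lower (median −0.27), with TH at −0.59 or −0.89 without ursodeoxycholic acid replicate 1. On single arrays the neuroblast median ran from 7.88 to 8.08 with silymarin and from 8.09 to 8.51 with ursodeoxycholic acid, against 7.9 to 8.12 in mock. The fibroblast median ran from 6.02 to 6.55 and from 6.13 to 6.71 in the same order, against 6.37 to 7.02 in mock, and the hepatocyte median from 6.57 to 6.92 and from 6.16 to 7.02. Medians of the leukocyte, endothelial and cholangiocyte markers differed by −0.19, −0.06 and 0.23 over 8, 7 and 6 genes. The part of these levels in the differences above was not tested, and in bulk RNA fewer cells of a type and less RNA per cell cannot be told apart.

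**Figure D5:**
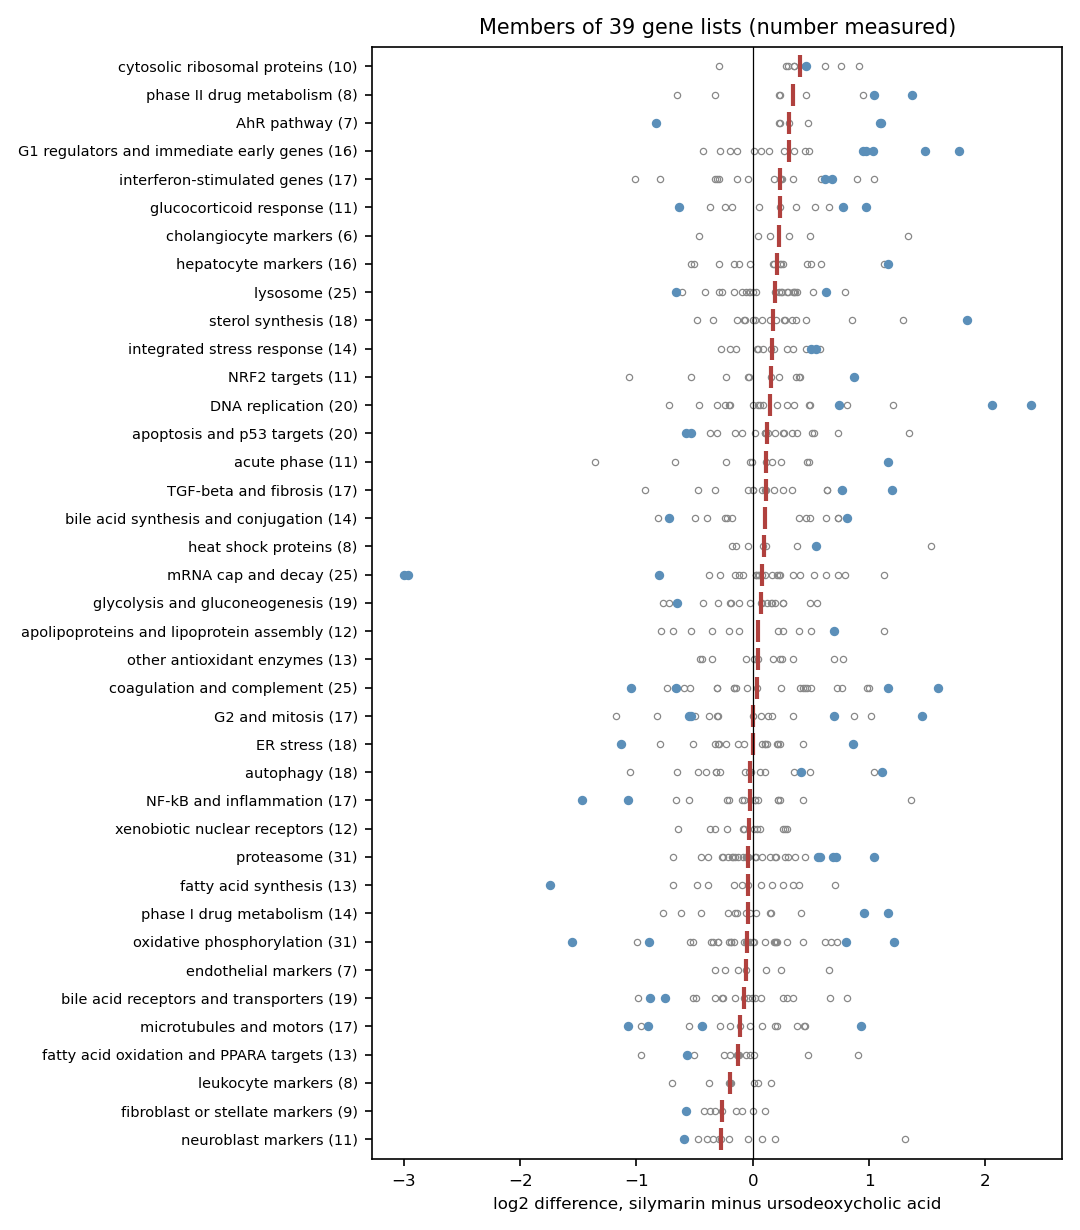
Log2 difference, silymarin minus ursodeoxycholic acid (horizontal axis), of each measured member of the 39 gene lists (rows, with the number measured). Filled points have an unadjusted p under 0.05, and the red bar is the list median. The medians run from −0.27 for neuroblast markers to 0.4 for cytosolic ribosomal proteins, and DCPS and NCBP1 are the 2 points near −3.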

How the data were processed

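Total RNA was labelled with Cy5 and hybridized to one-colour oligonucleotide arrays, per the labels' protocols. Each deposited value is a linear intensity of 1 probe on 1 array, from 1 to 65221. The submitters' processing notes name limma. Its settings, the scanner and any background correction are not given there. The arrays had been brought to nearly 1 distribution: at a given rank the values had a median coefficient of variation of 0.374%. No detection calls came with the values, and precision is limited by how few arrays there are.

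Of 27561 probes, the platform annotation gives 1 symbol to 15650 and several to 0, and the 11911 without a symbol were left out. Symbols of 2355 probes were updated through RefSeq's gene table, and 68 with several possible updates were kept. For each gene the brightest probe on average was kept. The fit on log2 intensities used lmFit and eBayes (limma 3.58.1, R 4.3.3), with 1 mean per group over 12 arrays, with 8 residual and 2.71 prior degrees of freedom. Tests were two-sided, adjusted by Benjamini-Hochberg over 13881 genes at 0.05, and the test was checked on simulated data. No 2 arrays were alike (at least 99.6% of probes differed). Genes were named where past the threshold, filled by smallest p to 6 bright and 4 dim genes a direction, plus up to 3 members of each list at an unadjusted p under 0.05. Others named are list members or were chosen after their values were seen. The comparison and gene lists were chosen with earlier results of these data known.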

Additional observations from a re-analysis of the deposited data

How the results depend on the processing

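The 7 genes differing between the agents kept their direction under every alternative that tested them, but the count did not hold. No gene passed with the replicate number as a block, in the fit of silymarin, ursodeoxycholic acid and mock arrays, in that of the 6 compared arrays, over all 27561 probes, or against a 2-fold limit (0 in each, with 1309, 1017, 949 and 2138 genes or probes at an unadjusted p under 0.05 in limma for the first 4). These fits hold fewer arrays, residual degrees of freedom or a harder limit, except that over all probes. The replicate numbers did not pair the samples. Same-numbered arrays deviated together with r from −0.19 to 0.153, over 0.1 in 4 of 18 pairs, and 5 of 12 arrays correlated best with their own number. Leaving out dim genes gave 4 calls, 3 higher with silymarin and 1 lower, with 12 of the 20 named and 3 of the 7 passing genes left to test. The dimmest probe gave 4 (3 and 1), an offset of 16 gave 3 (2 and 1) and median centring 5 (3 and 2). An offset of 50 gave 10 (8 and 2), and the variance trend with robust estimation 16 (11 and 5), 3 of them among the 7. The cause was not tested. Without 1 array the count ran from 0 to 32, from 0 to 29 higher and from 0 to 3 lower, and the 32, which included 6 of the 7, came without ursodeoxycholic acid replicate 3. Without any 1 mock array the differences between the agents are unchanged by construction and the calls were 2, 0 and 3, so the spread estimate alone moved them. By gene, DCPS passed in 14 of 21 alternatives, CLCN2 and MIEN1 in 10 of 21, SLC22A11 in 8, NCBP1 in 5, KLHL40 in 4 and RASL11A in 3 of 20. The agent that departed from mock stayed the same for all 7 in each alternative that could show it, except for 1 gene without mock replicate 3. With the dimmest probe FGG turned to −0.52 and STMN1 to 0.36.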

Other observations

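Further bright genes stood out with the variance trend, which gives bright genes a smaller assumed spread. They were chosen after their values were seen, and HIPK3 alone passed with an offset of 50 as well. Higher with silymarin and low with ursodeoxycholic acid against mock were the kinase HIPK3 (14.02 with silymarin, 12.68 with ursodeoxycholic acid, 13.62 in mock), the endosomal GTPase RAB21 (12.94, 12.09 and 12.7), OAF (12.04, 11.17 and 12.16) and FNTA, a subunit of protein farnesyltransferase (13.35, 12.54 and 13.23). The glycyrrhizin means of these genes lay below mock too, at 12.05, 12.24, 11.22 and 12.39 in that order. Lower with silymarin against both ursodeoxycholic acid and mock were PCLAF, a partner of the replication clamp (13.87, 14.47 and 14.39), and CDCA3, which acts at mitotic entry (12.66, 13.26 and 13.26). Their adjusted p-values with the trend in limma ran from 0.0135 to 0.041.

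In 4 of 13881 genes (0.0288%) the agents departed from mock on opposite sides. Besides KTI12 these were WDR75, a factor of ribosomal RNA synthesis, at 9.63 with silymarin, 8.33 with ursodeoxycholic acid and 9.07 in mock, the splicing factor PRPF38A (4.84, 3.46 and 4.11) and MEGF11 (5.73, 4.59 and 5.16). SERPINB2, an inhibitor of plasminogen activators, lay high with ursodeoxycholic acid alone (7.15 against 4.48 with silymarin and 5.07 in mock) and passed with an offset of 50 (adjusted p = 0.012 in limma) but not without it (0.201).

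The 11911 probes without a symbol were fitted together with all others. In limma 0 of them passed, with 879 at an unadjusted p under 0.05.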
